A study of Mus musculus with 9 samples.

Results

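The 45 genes described here are interferon stimulated genes, antiviral and immune effector genes whose transcription is switched on in most cell types that receive an interferon signal. They were taken as a fixed list of gene names, and all 45 were found among the 35673 genes of the deposited count table. Each of the 45 also passed the filter on low counts that left 21341 genes for testing. The list was drawn up with earlier results of the same libraries known, so the direction of the group as a whole is described and is not offered as independent evidence.

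Type I interferons bind a receptor made of Ifnar1 and Ifnar2, whose kinases Jak1 and Tyk2 phosphorylate transcription factors. These join Irf9 to form a complex that binds the interferon stimulated response element (ISRE) in promoters, while interferon gamma acts through a different element, the gamma activated site (GAS). The induced proteins sense foreign RNA and DNA, block viral replication, attack the membranes of intracellular pathogens and also restrain the interferon signal itself. Basophils are rare circulating granulocytes best known for type 2 immunity and allergy. IL-3 is their main growth factor, and IL-33 activates them through the receptor chain Il1rl1 and the adaptor Myd88. Difamilast is an inhibitor of phosphodiesterase 4, the enzyme family that degrades cyclic AMP, and is used on the skin in atopic dermatitis.

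The cells were mouse bone marrow-derived basophils from wild-type C57BL/6J animals, grown from marrow for 7 days in 0.3 ng/mL IL-3 and enriched magnetically for CD49b+ cells. All groups shared this culture and a final exposure of 4 h in samples of 10000 cells. Resting cells were given PBS plus DMSO as vehicle. Stimulated cells were given DMSO and a pair of cytokines, IL-3 (10 ng/mL) and IL-33 (10 ng/mL). In the difamilast group the drug, at 3 µM, replaced the vehicle beside this cytokine pair. Each group had 3 libraries of polyadenylated RNA, amplified as whole transcriptomes before sequencing. No group received difamilast without cytokines. The labels do not say whether the libraries of a group came from separate cultures or animals, so every p-value below measures only the spread between these libraries, which may be technical.

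Resting libraries held 6261446 to 14795353 counts, stimulated libraries 11798711 to 38098584 and difamilast libraries 24812305 to 30299575. Levels are given as CPM, the count as a part of the library total after scaling by the trimmed mean of M values, and always in the order of replicates 1, 2 and 3. The labelled cell type was checked against its markers: the basophil genes Mcpt8 and Prss34 were at 957, 1715 and 1629 CPM and 1119, 1639.6 and 1829.8 CPM in the resting libraries. Monocyte and macrophage genes were also present, with Lyz2 at 3428, 4066 and 4376 CPM at rest, so the CD49b+ fraction was not free of other RNA. The summed level of 12 basophil genes was 10595 to 11070 CPM at rest, 15198 to 16147 CPM in stimulated and 18004 to 19197 CPM in difamilast libraries, and that of 12 monocyte and macrophage genes was 6118 to 7645, 4761 to 5046 and 4562 to 4949 CPM. Resting replicate 1 and difamilast replicate 3 stood apart within their groups. Over all genes, the chi-square per degree of freedom between their counts and those of the other libraries of the group was 19.3 and 33.8 for resting replicate 1 and 29.7 and 43.3 for difamilast replicate 3, against 5.06 and 6.74 for the remaining pairs. The markers of resting replicate 1 went both ways. Of the resting libraries it had the lowest Mcpt8 and the highest level of the macrophage receptor gene Csf1r (234, 144 and 142 CPM). It also had the lowest Lyz2 and the highest level of the basophil gene Hdc (2350, 1657 and 1746 CPM). Its summed level was the lowest of the group for the monocyte and macrophage genes (6118, 7280 and 7645 CPM). The same was true of the basophil genes, by a small margin (10595, 10733 and 11070 CPM). In RNA pooled from all cells of a sample, fewer cells of a type and less RNA per cell cannot be told apart. The cell type in which an interferon stimulated gene was transcribed cannot be read from these values.

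Promoter sequences are shown first for some of the genes on which the results turn, because the ISRE is the element that the complex with Irf9 binds. The windows are those of RefSeq on GRCm38.p6, running from 250 bases before to 50 bases after each annotated start, and 34 of the 45 genes had one. Each sequence reads 5′ to 3′ on the strand of its gene, and capitals mark every match to GAAANNGAAA on either strand, the core of the ISRE. Every sequence shown holds a match. The first set is the complete windows of 3 genes of the Ifit cluster on chromosome 19 and of Gbp2, the gene with the largest rise. The 2 windows of Ifit2, the other gene of the cluster, held no match and are not shown.
Ifit1, chr19:34640639-34640938: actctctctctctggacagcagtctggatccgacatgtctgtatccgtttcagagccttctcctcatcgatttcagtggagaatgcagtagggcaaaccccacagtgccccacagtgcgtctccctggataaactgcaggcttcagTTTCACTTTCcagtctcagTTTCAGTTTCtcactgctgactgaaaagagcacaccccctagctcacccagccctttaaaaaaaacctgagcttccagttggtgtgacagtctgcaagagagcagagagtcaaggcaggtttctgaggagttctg
Ifit3, chr19:34583279-34583578: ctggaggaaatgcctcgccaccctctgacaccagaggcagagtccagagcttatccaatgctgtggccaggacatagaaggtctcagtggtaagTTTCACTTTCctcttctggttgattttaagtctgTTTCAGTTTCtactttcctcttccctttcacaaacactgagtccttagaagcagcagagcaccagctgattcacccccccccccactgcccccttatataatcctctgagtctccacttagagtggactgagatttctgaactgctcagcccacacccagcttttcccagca
Ifit3b, chr19:34607707-34608006: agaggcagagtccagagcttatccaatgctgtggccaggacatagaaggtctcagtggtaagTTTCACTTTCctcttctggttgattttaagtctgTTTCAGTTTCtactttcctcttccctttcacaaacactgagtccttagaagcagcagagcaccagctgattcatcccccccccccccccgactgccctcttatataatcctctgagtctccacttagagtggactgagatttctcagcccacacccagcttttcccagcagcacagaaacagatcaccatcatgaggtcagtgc
Gbp2, chr3:142620413-142620712: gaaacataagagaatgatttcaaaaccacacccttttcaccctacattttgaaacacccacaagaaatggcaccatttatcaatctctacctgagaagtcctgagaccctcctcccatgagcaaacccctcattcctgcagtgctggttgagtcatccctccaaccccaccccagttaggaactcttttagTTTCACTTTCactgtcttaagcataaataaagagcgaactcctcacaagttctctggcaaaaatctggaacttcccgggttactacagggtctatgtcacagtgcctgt
The Ifit1, Ifit3 and Ifit3b windows each held 2 matches, and the Gbp2 window held 1. Ifit3 and Ifit3b are neighbouring copies of one gene, and their windows shared an identical run of 169 bases that carried both matches, placed at a shift of 32 bases relative to the annotated starts. The next set shows shorter stretches around the matches of genes with other roles, including Ifi205, which fell with difamilast, and Rsad2 and Oas3, which did not pass that test.
Isg15, chr4:156200850-156200921: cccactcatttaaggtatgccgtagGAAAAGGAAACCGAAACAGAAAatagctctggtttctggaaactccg
Oas3, chr5:120777700-120777759: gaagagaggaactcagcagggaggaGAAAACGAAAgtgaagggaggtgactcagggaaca
Rsad2, chr12:26456538-26456597: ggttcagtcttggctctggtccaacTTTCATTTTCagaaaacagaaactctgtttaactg
Irgm1, chr11:48871410-48871475: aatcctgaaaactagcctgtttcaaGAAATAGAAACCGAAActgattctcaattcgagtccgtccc
Gbp5, chr3:142496744-142496803: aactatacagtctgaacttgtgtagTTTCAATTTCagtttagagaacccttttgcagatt
Ifi205, chr1:174031855-174031914: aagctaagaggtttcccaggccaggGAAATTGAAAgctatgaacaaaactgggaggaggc
In Isg15 the 3 matches overlapped each other, as did the 2 in Irgm1. The Ifi205 window held 2 matches, at positions -134 and 23 from the annotated start, and its stretch shows only the first. In all, 20 of the 34 genes with a window (58.8%) held the pattern, against 4.02% of the 12922 tested genes that had a window and 3.44% of all 32851 windows. The GAS pattern TTCNNNGAA, which reads the same on both strands, was in 11 of the 34 (32.4%) against 8.64% of tested genes with a window, and the kappaB pattern was in 3 of the 34 (8.82%) against 5.97%. A match of the ISRE pattern overlapped one of the GAS pattern only in Bst2. Sequence matches describe these windows and do not show that a factor was bound.

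**Figure D1:**
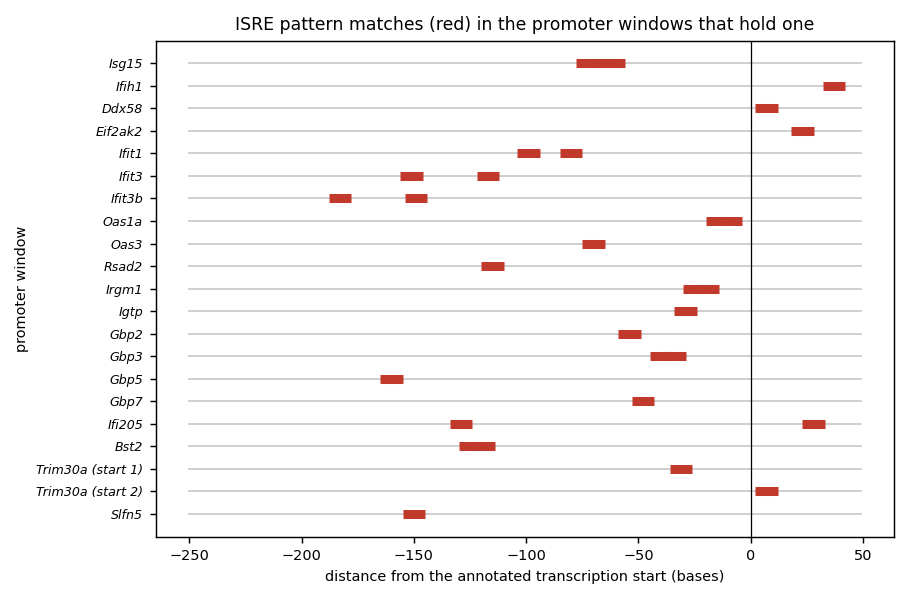
Position of each match to the ISRE core pattern (red) in the 21 promoter windows, belonging to 20 genes, that held one, drawn as distance in bases from the annotated transcription start. Matches lay on both sides of the start, from position -188 in Ifit3b to position 32 in Ifih1.

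Stimulation with IL-3 and IL-33 raised nearly the whole family within 4 h. Of the 45 genes, 42 were called higher in stimulated than in resting libraries by edgeR's quasi-likelihood test at a Benjamini-Hochberg adjusted p under 0.05, where 15.3% of all 21341 tested genes were called higher. The median log2 fold change of the 45 genes was 1.58, against 0.06 over all tested genes, and 36 of them were called with a rise of at least 2-fold, where the share of all tested genes was 7.5%. All 3 stimulated libraries lay above all 3 resting libraries for 44 genes (23.2% of tested genes), and below them only for Samhd1 (20.6% of tested genes). No member was called lower (16.4% of tested genes were), and none was lower at an unadjusted p under 0.05 either. DESeq2 and limma-voom also called 0 lower. Without resting replicate 3, 1 member, Samhd1, was called lower. The 3 members that did not pass the test were Oasl1, Samhd1 and Ifi27l2a. Summed over the 45 genes, the level was 2240 ± 388 CPM (SD, n = 3) at rest and 7911 ± 236 CPM (SD, n = 3) in stimulated libraries. Before scaling, the genes made up 0.244% to 0.353% and 0.678% to 0.729% of all counts. The scaling factors were 1.32, 1.23 and 1.26 at rest and 0.892, 0.885 and 0.871 in stimulated libraries. The scaled levels of the 2 groups therefore differ more than the shares of counts do, and no alternative left such scaling out. Over the same contrast 8 of 12 basophil genes rose (15.3% of tested genes did) and 8 of 12 monocyte and macrophage genes fell (16.4% did). The part of cell composition in the rise of the 45 genes was not tested. Mitochondrial transcripts took 1.82% to 2.71% of counts at rest, 1.51% to 1.67% in stimulated and 1.19% to 1.42% in difamilast libraries, and their part in either comparison was not tested.

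With difamilast present, most of the family had estimates below the stimulated level, and a few genes passed the test. Of the 45 genes, 6 (13.3%) were called lower in difamilast than in stimulated libraries, where 1.24% of all tested genes were called lower, and these were Ifit2, Ifit3, Ifit3b, Mx1, Ifi205 and Gbp2. None was called higher, where 2.21% of tested genes were, and none was higher at an unadjusted p under 0.05, whereas 18 were lower at that unadjusted level (7.95% of tested genes were). DESeq2 and limma-voom each called 8 lower and 0 higher, where they called 1.95% and 1.87% of tested genes lower. The log2 difference was below 0 for 43 genes, with a median of -0.21 against -0.0029 over all tested genes, and for 24 genes (53.3%) all 3 difamilast libraries lay below all 3 stimulated libraries, where 12.6% of tested genes did. The reverse order was found for 0 of the 45 and for 12.2% of tested genes. The log2 difference of 23 genes lay within 0.25 of 0. The summed level of the 45 genes with difamilast was 6445 ± 591 CPM (SD, n = 3), and before scaling they made up 0.550% to 0.605% of all counts. In simulated counts with the spread of these libraries, changes were planted in genes drawn at random from all tested genes. The test of difamilast against stimulated recovered 52.2% of the 67 genes altered by 2-fold and 14.9% of the 67 altered by 1.5-fold. A further 66 genes were altered by 4-fold, and the rest of the 21341 were left unchanged. In the real libraries 735 genes were called in this comparison. The adjusted p of a gene depends on how many other genes change, so these shares are not the recovery rate of the reported test. These shares cover genes of every level and were not measured for the 45 genes, of which 41 averaged at least 20 CPM. A missing call among the genes with small differences does not show equal levels.

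**Figure D2:**
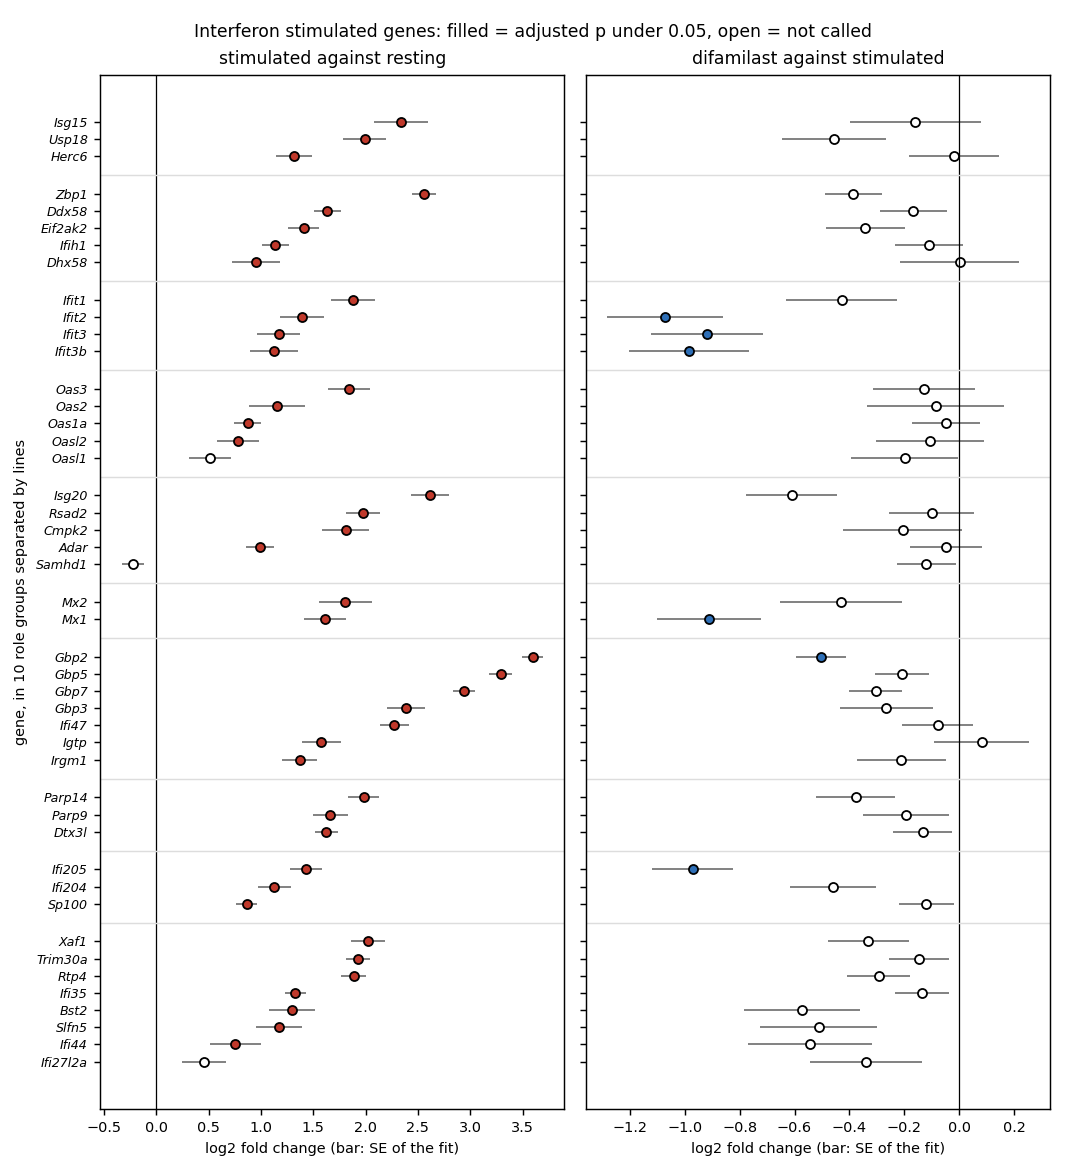
Log2 fold change of each of the 45 genes, grouped by role, in stimulated against resting libraries (left) and difamilast against stimulated libraries (right, on its own scale). Points are estimates, bars are the standard error of the fit, and filled points passed an adjusted p under 0.05: 42 on the left and 6 on the right.

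How many genes fell with difamilast depended on single libraries. Difamilast replicate 3 was the highest of its group for 36 of the 45 genes, and resting replicate 1 was the highest of its group for 37. Without difamilast replicate 3 the count called lower was 15, where 2.74% of all tested genes were. Resting replicate 1 enters this comparison only through the scaling, the shared estimate of spread and the filter. With that library left out the count was 11, where 3.69% of tested genes were. Without both it was 28, where 9.57% of tested genes were, a setting added after the libraries' values were seen. Leaving out difamilast replicate 2 instead gave 1, difamilast replicate 1 gave 3, and stimulated replicate 1 gave 2, where 0.421%, 0.539% and 0.483% of tested genes were called lower. The count over all genes thus moved the same way as the count of the 45. Of the 6 genes, Ifi205 kept its call under each of the 18 alternatives run, with adjusted p up to 0.00942. Of the same alternatives, Gbp2 lost it only without difamilast replicate 2, at an adjusted p of 0.0516. Ifit2 and Mx1 each lost theirs without stimulated replicate 1, difamilast replicate 1 or difamilast replicate 2, with adjusted p up to 0.0665 for Ifit2 and 0.0960 for Mx1. Ifit3b lost it without any one of the stimulated libraries or without difamilast replicate 2, with adjusted p up to 0.136, and Ifit3 in those settings and without difamilast replicate 1, with adjusted p up to 0.129. The log2 difference of all 6 stayed below 0 in the 18 alternatives.

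**Figure D3:**
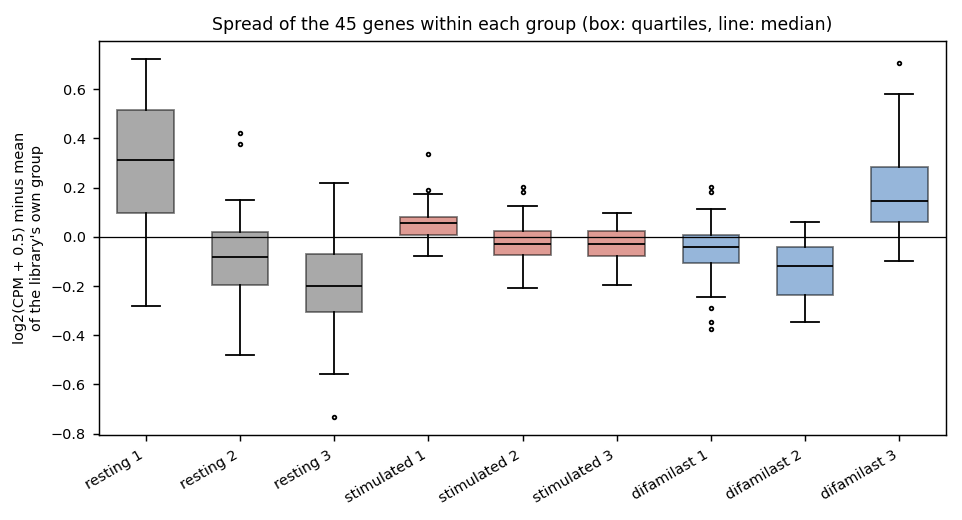
Distance of the 45 genes in each library from the mean of that library's own group, on the log2(CPM + 0.5) scale. Boxes are quartiles with the median as a line, whiskers reach up to 1.5 times the quartile range, and the genes of resting replicate 1 and difamilast replicate 3 sit mostly above 0.

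The Ifit genes encode proteins that bind foreign RNA and block its translation, and they hold 3 of the 6 genes that fell with difamilast. Ifit2 was at 65.9, 45.9 and 36.5 CPM at rest, 137, 119.6 and 135 CPM with the cytokines and 53.4, 47.8 and 85.3 CPM with difamilast. Every stimulated library exceeded every other library, and the resting and difamilast values overlapped. Ifit2 rose by 2.63-fold on stimulation (log2 1.39 ± 0.21 SE, edgeR adjusted p = 1.38e-04) and was 2.10-fold lower with difamilast (log2 -1.07 ± 0.21 SE, edgeR adjusted p = 0.00800). Ifit3 was at 30.3, 17.7 and 14.7 CPM at rest, 49.9, 45.4 and 47.4 CPM with the cytokines and 27.0, 20.8 and 27.6 CPM with difamilast. Its near copy Ifit3b was at 15.7, 7.93 and 7.98 CPM at rest, 23.02, 24.0 and 22.3 CPM with the cytokines and 13.4, 9.61 and 12.0 CPM with difamilast. Both again had resting and difamilast libraries that overlapped, with the stimulated libraries above them. Their log2 differences with difamilast were -0.92 ± 0.20 (edgeR adjusted p = 0.0176) and -0.99 ± 0.22 (edgeR adjusted p = 0.0191). Of the 50-base words in the longest Ifit3 transcript, 51.2% also occur in another gene, Ifit3b, so reads of the pair may have been split between them and the pair is closer to 1 observation than to 2. Ifit1, which recognises RNA lacking a methylated cap, was at 58.0, 32.3 and 29.3 CPM at rest, 146, 147 and 149.9 CPM with the cytokines and 102, 92.0 and 135 CPM with difamilast. The difamilast libraries of Ifit1 lay between the other groups with no overlap, and its log2 difference from stimulated libraries of -0.43 ± 0.20 did not pass the test (edgeR adjusted p = 0.341). The 4 genes lie together on chromosome 19 of GRCm38, from Ifit2 at chr19:34550694-34576419 through Ifit3 at chr19:34583531-34588731 and Ifit3b at chr19:34607970-34613401 to Ifit1 at chr19:34640871-34650009.

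**Figure D4:**
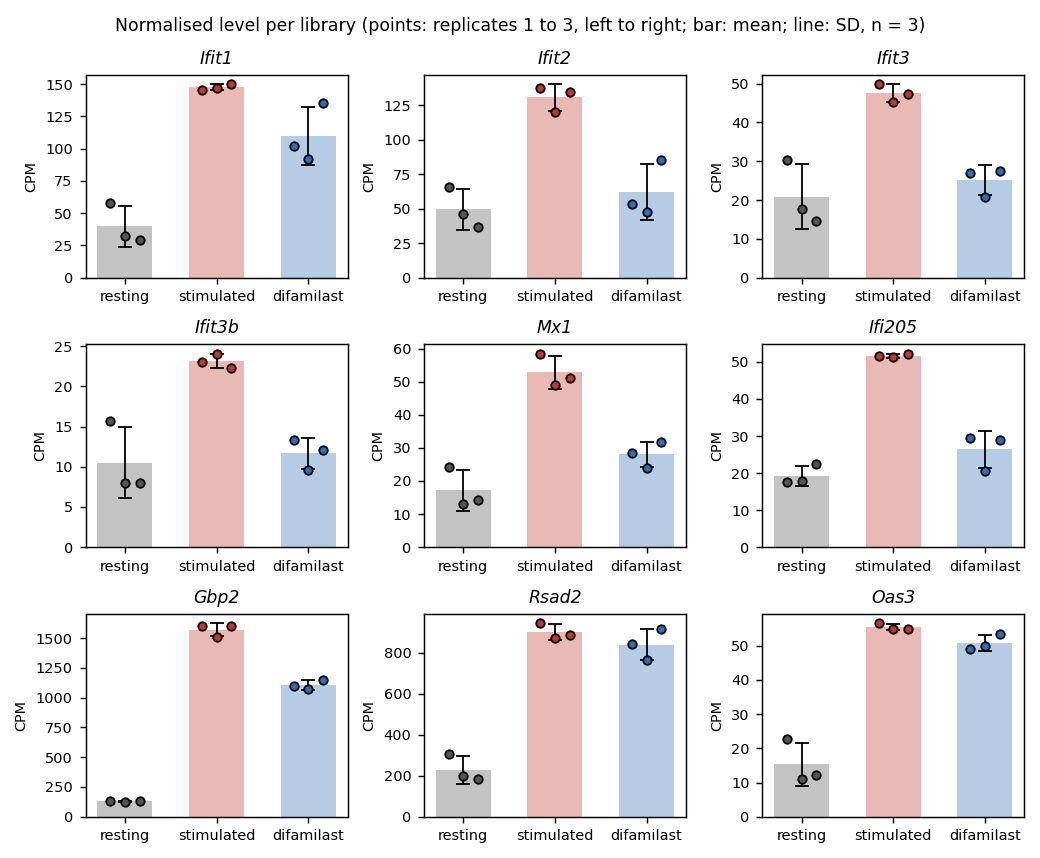
Level of 9 genes in every library (points, replicates 1 to 3 from left to right) with the group mean (bar) and SD (line, n = 3), on linear CPM axes that start at 0. Ifit2, Ifit3 and Ifit3b with difamilast overlap the resting libraries, Gbp2 remains far above them, and Rsad2 and Oas3 stay close to their stimulated level.

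Mx1 and Mx2 encode dynamin-like GTPases that trap viral ribonucleoproteins, and both rose on stimulation. Mx1 was at 24.2, 13.0 and 14.2 CPM at rest, 58.4, 48.9 and 51.1 CPM with the cytokines and 28.4, 24.0 and 31.6 CPM with difamilast. The stimulated libraries stood above all others, and resting replicate 1 lay within the range of the difamilast libraries. Mx1 rose by 3.06-fold on stimulation and was 1.88-fold lower with difamilast (log2 -0.91 ± 0.19 SE, edgeR adjusted p = 0.0119). Mx2 averaged 10.4 ± 0.589 CPM (SD, n = 3) in stimulated libraries and had a log2 difference with difamilast of -0.43 ± 0.22, which did not pass (edgeR adjusted p = 0.397). In C57BL/6J mice the Mx genes are known to carry defects that leave no functional Mx1 protein, so these values concern the transcripts.

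Genes for guanylate binding proteins and immunity-related GTPases, which assemble on the vacuoles of intracellular pathogens, held the largest rises of the family. Gbp2 was at 133, 127 and 128 CPM at rest, 1602, 1507 and 1600.5 CPM with the cytokines and 1094, 1074 and 1152 CPM with difamilast. The 3 groups did not overlap. Gbp2 rose by 12.1-fold (log2 3.60 ± 0.10 SE, edgeR adjusted p = 6.90e-12) and was 1.42-fold lower with difamilast (log2 -0.50 ± 0.09 SE, edgeR adjusted p = 0.00398). Gbp5, which promotes inflammasome assembly, was at 43.9, 37.1 and 42.4 CPM at rest, 425, 404 and 378 CPM with the cytokines and 340.2, 347 and 358 CPM with difamilast. Gbp7 was at 64.7, 59.3 and 57.5 CPM at rest, 483, 469 and 439 CPM with the cytokines and 357, 366 and 403 CPM with difamilast. Both also separated the 3 groups with no overlap, though their log2 differences with difamilast of -0.21 ± 0.10 and -0.30 ± 0.10 did not pass (edgeR adjusted p = 0.346 and 0.122). Gbp3 was at 30.8, 17.6 and 16.8 CPM at rest, 119, 105 and 120.5 CPM with the cytokines and 94.3, 99.5 and 92.3 CPM with difamilast. Its stimulated and difamilast libraries did not overlap either, with a log2 difference of -0.27 ± 0.17 that did not pass. The 4 Gbp genes lie in one stretch of chromosome 3, from the start of Gbp5 at 142493978 to the end of Gbp2 at 142638008 (GRCm38).

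The 3 genes for immunity-related GTPases in the family all rose on stimulation. Ifi47 was at 44.7, 36.6 and 28.2 CPM at rest, 186, 167 and 181 CPM with the cytokines and 174, 166 and 165 CPM with difamilast. Igtp, also called Irgm3, was at 41.7, 20.8 and 28.0 CPM at rest, 90.6, 86.9 and 92.5 CPM with the cytokines and 100.1, 96.8 and 88.7 CPM with difamilast. Irgm1, which regulates the others, was at 50.8, 28.4 and 33.9 CPM at rest, 102, 95.7 and 95.7 CPM with the cytokines and 84.5, 76.9 and 91.7 CPM with difamilast. The rises on stimulation were 2.27 ± 0.14, 1.58 ± 0.18 and 1.37 ± 0.17 on the log2 scale, with all stimulated libraries above all resting ones. With difamilast Ifi47 and Igtp overlapped their stimulated values, Igtp having the highest log2 difference of the 45 genes at 0.08 ± 0.17, while Irgm1 lay below them without overlap at -0.21 ± 0.16. None of the 3 passed the test. Of the 50-base words of Igtp, 12.3% also occur in Irgm2, so its count may include reads of that gene.

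The ISG15 system attaches a ubiquitin-like tag to proteins. Isg15, the tag itself, was at 36.6, 52.2 and 33.7 CPM at rest, 208, 235 and 180.0 CPM with the cytokines and 135, 138 and 285 CPM with difamilast. It rose by 5.05-fold, and difamilast replicate 3 was above every stimulated library while the other difamilast libraries were below them all. Usp18, the protease that removes the tag and dampens the type I receptor, was at 35.8, 18.4 and 18.9 CPM at rest, 98.7, 89.4 and 104 CPM with the cytokines and 72.4, 64.3 and 76.2 CPM with difamilast. Herc6, a ligase that attaches it in mice, was at 42.1, 30.2 and 21.9 CPM at rest, 82.3, 78.8 and 75.4 CPM with the cytokines and 78.8, 71.6 and 82.9 CPM with difamilast. Usp18 separated stimulated from difamilast libraries and Herc6 did not. The log2 differences with difamilast were -0.16 ± 0.24 for Isg15, -0.46 ± 0.19 for Usp18 and -0.02 ± 0.16 for Herc6, and none passed the test. Of the 50-base words of Herc6, 23.8% also occur in the overlapping gene model Gm45193.

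Genes for sensors of foreign nucleic acid rose in full, with 5 of 5 called higher on stimulation and a median log2 fold change of 1.41. Zbp1, a sensor of Z-form RNA and DNA that can trigger necroptosis, was at 31.7, 32.4 and 29.5 CPM at rest, 184, 184 and 184 CPM with the cytokines and 134, 129.6 and 160.4 CPM with difamilast. The 3 groups did not overlap, and Zbp1 rose by 5.90-fold (log2 2.56 ± 0.11 SE, edgeR adjusted p = 1.91e-10). Its log2 difference with difamilast of -0.39 ± 0.10 narrowly missed the threshold (edgeR adjusted p = 0.0585) and passed it in 7 of the 18 alternatives. Ddx58, the RIG-I helicase, was at 44.7, 34.2 and 36.7 CPM at rest, 135, 113 and 111 CPM with the cytokines and 103, 99.3 and 117 CPM with difamilast. Ifih1, the MDA5 helicase that recognises long duplex RNA, was at 44.8, 32.9 and 33.1 CPM at rest, 77.7, 83.1 and 83.2 CPM with the cytokines and 80.0, 71.3 and 74.9 CPM with difamilast. For both, the stimulated and difamilast libraries overlapped, and all of them lay above the resting libraries. Dhx58, the regulatory helicase LGP2, was at 19.3, 11.6 and 8.23 CPM at rest, 26.4, 25.1 and 25.5 CPM with the cytokines and 25.7, 21.3 and 30.2 CPM with difamilast. Its estimated difference with difamilast was 0.0013 on the log2 scale, with a standard error of 0.22. Eif2ak2, the kinase PKR that halts translation on duplex RNA, was at 36.9, 32.0 and 26.7 CPM at rest, 92.6, 87.2 and 75.8 CPM with the cytokines and 65.6, 56.4 and 79.5 CPM with difamilast. Its log2 difference with difamilast was -0.34 ± 0.14, with difamilast replicate 3 inside the stimulated range.

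The OAS enzymes make 2′-5′ linked adenylates that activate RNase L, and their median log2 difference with difamilast of -0.11 was the nearest to 0 of the 10 roles into which the family was divided. Oas3 was at 22.6, 11.1 and 12.3 CPM at rest, 56.5, 54.7 and 54.9 CPM with the cytokines and 48.9, 49.7 and 53.5 CPM with difamilast. It had the largest rise of the 5 OAS genes (log2 1.84 ± 0.20 SE, edgeR adjusted p = 4.33e-06). Oas1a was at 22.9, 17.9 and 19.1 CPM at rest, 39.9, 34.4 and 35.9 CPM with the cytokines and 36.4, 34.4 and 35.4 CPM with difamilast. More than any other member it shares sequence with a neighbour, 57.6% of its 50-base words occurring in Oas1g, so its count may hold reads of both. Oasl2 was at 66.4, 37.3 and 31.7 CPM at rest, 82.2, 75.6 and 77.0 CPM with the cytokines and 71.5, 65.9 and 80.4 CPM with difamilast. Oasl1, which lacks synthase activity and restrains translation of Irf7, was at 35.9, 28.6 and 17.7 CPM at rest, 45.4, 37.6 and 36.5 CPM with the cytokines and 30.5, 32.4 and 41.0 CPM with difamilast. The stimulated libraries of Oasl1 were all above the resting ones, yet its log2 fold change of 0.52 ± 0.20 missed the threshold (edgeR adjusted p = 0.0622) and passed it in 4 of the 18 alternatives, those with no filter on low counts, with the length trend removed, without resting replicate 1, and without both that library and difamilast replicate 3. Oas2 averaged 17.3 ± 3.80 CPM (SD, n = 3) when stimulated and rose by 2.22-fold. With difamilast Oas1a, Oas2, Oasl1 and Oasl2 overlapped their stimulated values, and only the 3 Oas3 libraries lay below them.

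Of 5 genes for enzymes that act on nucleotides and RNA, 4 rose on stimulation and Samhd1 did not. Rsad2, or viperin, which makes a chain-terminating nucleotide, was at 307, 199 and 183 CPM at rest, 945, 874 and 886 CPM with the cytokines and 842, 763 and 918 CPM with difamilast. Cmpk2, its divergent neighbour on chromosome 12 and a mitochondrial nucleotide kinase, was at 109, 46.8 and 55.3 CPM at rest, 257, 226 and 258 CPM with the cytokines and 207, 199.6 and 235 CPM with difamilast. Both rose without overlap, by 3.92-fold and 3.50-fold, and both overlapped their stimulated values with difamilast. Isg20, an RNA exonuclease, was at 21.2, 27.9 and 29.1 CPM at rest, 159, 166 and 151 CPM with the cytokines and 83.0, 90.9 and 138 CPM with difamilast. The groups did not overlap, and the log2 difference with difamilast of -0.61 ± 0.17 missed the threshold (edgeR adjusted p = 0.0622) but passed it in 7 of the 18 alternatives, among them DESeq2 and limma-voom. Adar, which edits adenosine to inosine in duplex RNA, was at 62.2, 44.9 and 43.4 CPM at rest, 109, 90.1 and 101 CPM with the cytokines and 92.5, 99.3 and 98.3 CPM with difamilast. Its stimulated and difamilast libraries overlapped, with a log2 difference of -0.05 ± 0.13. Samhd1, which destroys deoxynucleotides, was at 471, 389.9 and 365 CPM at rest, 363, 335 and 353 CPM with the cytokines and 309, 328 and 329 CPM with difamilast. It was the highest member per kilobase of transcript at rest, at 104 CPM per kb, and the only one with a log2 fold change below 0 on stimulation. Its log2 difference from resting libraries was -0.22 ± 0.11 when stimulated (edgeR adjusted p = 0.128) and -0.34 ± 0.11 with difamilast, where it was called lower (edgeR adjusted p = 0.0224), a call that was lost without difamilast replicate 1 or difamilast replicate 2.

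Genes for proteins of the nucleus and of ADP-ribosylation rose in all 6 cases. Ifi205, a HIN-200 protein that binds DNA, was at 17.5, 17.9 and 22.4 CPM at rest, 51.5, 51.3 and 52.2 CPM with the cytokines and 29.6, 20.6 and 28.9 CPM with difamilast. The stimulated libraries lay within 1 CPM of each other and above all others, and the difamilast libraries overlapped the resting ones. Ifi205 rose by 2.70-fold and was 1.96-fold lower with difamilast (log2 -0.97 ± 0.15 SE, edgeR adjusted p = 0.00103). Its relative Ifi204 was at 51.7, 38.4 and 36.1 CPM at rest, 98.9, 88.2 and 90.1 CPM with the cytokines and 63.5, 54.7 and 83.1 CPM with difamilast. Ifi204 followed the same order without overlap between stimulated and difamilast libraries, but its log2 difference of -0.46 ± 0.16 did not pass (edgeR adjusted p = 0.153), and 30.2% of its 50-base words occur in other genes, chiefly Ifi211. Sp100, a scaffold of nuclear bodies, was at 69.5, 60.8 and 58.8 CPM at rest, 113, 116 and 116 CPM with the cytokines and 104, 101 and 112 CPM with difamilast. Parp14, an ADP-ribosyltransferase, was at 110.1, 85.3 and 76.9 CPM at rest, 385, 349 and 343 CPM with the cytokines and 237, 258 and 333 CPM with difamilast. Parp9 was at 40.8, 28.0 and 22.8 CPM at rest, 100.5, 96.1 and 95.4 CPM with the cytokines and 78.8, 82.0 and 94.3 CPM with difamilast. Dtx3l, the ubiquitin ligase that partners Parp9, was at 60.5, 50.5 and 46.1 CPM at rest, 163, 166 and 156 CPM with the cytokines and 146, 144 and 153 CPM with difamilast. For these 4 genes every difamilast library lay below every stimulated one, and no difference passed the test, with log2 differences of -0.12, -0.38, -0.19 and -0.13. Parp9 and Dtx3l start head to head on chromosome 16 and their models overlap. Whether the counting used strand is not given in the sources used here, so reads from the overlap cannot be assigned between them.

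Of the remaining 8 genes, 7 rose on stimulation. With difamilast none passed edgeR's adjusted test, 5 were lower at an unadjusted p under 0.05, and DESeq2 and limma-voom called 0. Trim30a, which limits Toll-like receptor signalling, was at 55.5, 62.3 and 50.9 CPM at rest, 224, 218 and 199 CPM with the cytokines and 179, 185 and 215 CPM with difamilast. Rtp4, a chaperone for membrane receptors, was at 46.2, 41.4 and 42.2 CPM at rest, 168, 144 and 168 CPM with the cytokines and 121, 121 and 151 CPM with difamilast. Xaf1, an antagonist of the apoptosis inhibitor XIAP, was at 15.2, 15.5 and 12.7 CPM at rest, 62.5, 61.8 and 53.9 CPM with the cytokines and 40.7, 41.9 and 59.2 CPM with difamilast. In each of these 3, difamilast replicate 3 reached into the stimulated range and the other 2 difamilast libraries lay below it. Bst2, or tetherin, which holds budding virions at the cell surface, was at 44.2, 71.6 and 47.6 CPM at rest, 127, 154 and 123 CPM with the cytokines and 68.4, 76.9 and 126 CPM with difamilast. Slfn5, a member of the Schlafen family, was at 58.5, 51.4 and 34.6 CPM at rest, 117, 114 and 97.1 CPM with the cytokines and 63.6, 57.9 and 108 CPM with difamilast. Both had difamilast replicate 3 inside the stimulated range and the other difamilast libraries close to the highest resting library, with log2 differences of -0.57 ± 0.21 and -0.51 ± 0.21 that did not pass. Ifi35 was at 43.8, 48.4 and 49.8 CPM at rest, 112, 120.4 and 123 CPM with the cytokines and 108, 111 and 105 CPM with difamilast. Ifi27l2a was at 27.8, 27.4 and 21.3 CPM at rest, 34.7, 38.3 and 32.4 CPM with the cytokines and 22.4, 21.0 and 40.1 CPM with difamilast. Ifi35 separated the 3 groups with a difference of -0.14 with difamilast, whereas Ifi27l2a passed in no comparison (edgeR adjusted p = 0.115 on stimulation), though its rise was called in 4 of the 18 alternatives, and it was called lower with difamilast in 2, both without difamilast replicate 3 (log2 -0.69 when that library alone was left out). Ifi44 averaged 9.40 ± 0.541 CPM (SD, n = 3) when stimulated, and its rise (log2 0.76 ± 0.24 SE, edgeR adjusted p = 0.0251) lost its call when any of resting replicates 2 and 3 or the 3 stimulated libraries was left out.

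Set against resting cells, the difamilast libraries were still well above baseline for most of the family. Of the 45 genes, 38 were called higher in difamilast than in resting libraries, where 16.4% of tested genes were, and 1, Samhd1, was called lower, where 16.4% of tested genes were as well. The median log2 fold change was 1.30, against 0.0092 over all tested genes. All 3 difamilast libraries lay above all 3 resting libraries for 33 genes (73.3%), where 23% of tested genes did, and below them for Samhd1 (19.8% of tested genes). The stimulated and difamilast comparisons share the resting libraries, so their fold changes are set side by side only. Of the 6 genes that fell with difamilast, 3 were still called higher than at rest. The log2 fold change over resting was 3.09 ± 0.10 for Gbp2 beside 3.60 ± 0.10 in stimulated cells, 0.70 ± 0.20 for Mx1 beside 1.61 ± 0.20, and 0.46 ± 0.15 for Ifi205 beside 1.43 ± 0.15. The Ifi205 call (edgeR adjusted p = 0.0311) and the Mx1 call (edgeR adjusted p = 0.0134) against resting were both lost without resting replicate 2, Mx1 also without resting replicate 3, and Ifi205 also without any of resting replicate 1, stimulated replicate 1, difamilast replicate 1 and difamilast replicate 3. In all, the Ifi205 call against resting was lost in 8 of the 18 alternatives, with adjusted p up to 0.132. Ifit2, Ifit3 and Ifit3b were not called higher than at rest, with log2 differences of 0.32 ± 0.21, 0.25 ± 0.21 and 0.14 ± 0.23. Without resting replicate 1 Ifit3 and Ifit3b were called higher than at rest, at log2 differences of 0.59 and 0.53. The calls of Oasl2, Bst2 and Slfn5 above resting were each lost without difamilast replicate 3 and without at least one of the resting libraries, and that of Slfn5 also without stimulated replicate 1.

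CPM per kilobase of the longest transcript in the basic GENCODE set allow levels to be ordered between genes. At rest Samhd1 was first, with a mean of 104 and libraries at 93.0 to 119.9 CPM per kb. Bst2, Rsad2, Ifi27l2a, Isg15 and Gbp2 came next with means of 51.6 to 68.8 CPM per kb, and overlapping libraries did not allow all of them to be ranked apart. In stimulated cells Gbp2 led at 624 CPM per kb. Isg15 at 275 and Rsad2 at 238 CPM per kb followed with libraries that overlapped, above Bst2 at 169.8 and Isg20 at 146 CPM per kb. With difamilast Gbp2 and Isg15 were again first and second, at 439.9 and 246 CPM per kb. Isg15 and Rsad2 could not be ranked apart there, because the 3 difamilast libraries of Isg15 had an SD of 85.7 CPM around a mean of 186 CPM.

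The pathway upstream of these genes was read from lists of its other components. Interferon genes themselves were barely detected: of 21 listed, 10 were in the table, and only Ifnb1, the gene of interferon beta, had enough counts to be tested. Ifnb1 had 8 counts summed over the resting libraries, 44 over the stimulated and 40 over the difamilast libraries, 31 of the last in replicate 3 alone. Its log2 fold change on stimulation of 1.52 ± 0.91 did not pass (edgeR adjusted p = 0.229). Ifng, the gene of interferon gamma, had 0, 27 and 7 counts in the 3 groups, Ifna16 had 2, 18 and 13, Ifna2 had 2, 16 and 8, Ifne had 0, 10 and 2, and Ifnz had 10, 8 and 5. Ifna7, Ifna9, Ifna11 and Ifnab had at most 2 counts in any group. These are raw counts from libraries of unlike depth, at 6261446 to 14795353 counts at rest and 11798711 to 38098584 when stimulated. Difamilast libraries held 24812305 to 30299575. The summed counts therefore do not compare levels between groups. Plasmacytoid dendritic cells, specialised producers of type I interferon, were followed through 9 markers: Siglech was at 1.05, 1.05 and 2.15 CPM at rest and 2.57, 0.980 and 0.714 CPM when stimulated, and Klk1 had no count in any resting or stimulated library. The summed level of these 9 genes was 63.6 to 69.7 CPM at rest, 52.1 to 58.7 CPM in stimulated and 43.7 to 55.0 CPM in difamilast libraries.

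Receptor and signalling genes changed in both directions. Beside the counts that follow, 15.3% of all tested genes were called higher and 16.4% lower on stimulation. With difamilast against stimulated libraries the shares were 2.21% higher and 1.24% lower. Of 6 receptor genes, 4 rose on stimulation (Ifnar1, Ifngr2, Ifnlr1 and Il10rb) and 2 fell (Ifnar2 and Ifngr1). The 2 chains of the interferon gamma receptor moved apart: Ifngr1 was at 165, 152 and 157 CPM at rest, 55.5, 56.5 and 56.3 CPM with the cytokines and 78.3, 82.6 and 70.00 CPM with difamilast, and Ifngr2 was at 71.6, 84.7 and 89.2 CPM at rest, 217, 231 and 198 CPM with the cytokines and 139.8, 142 and 162 CPM with difamilast. Difamilast shifted both back toward rest, Ifngr1 by 0.46 ± 0.10 (edgeR adjusted p = 0.0169) and Ifngr2 by -0.54 ± 0.11 (edgeR adjusted p = 0.0108) on the log2 scale. Both calls were lost when any one of stimulated replicates 1 and 2 and difamilast replicates 1 and 2 was left out, and that of Ifngr1 also without stimulated replicate 3. Of 12 kinases and transcription factors of interferon signalling, 9 rose and 1, Irf8, fell. Jak2 rose most, by 5.56-fold, and Irf7 and Irf9, which are themselves interferon stimulated, rose by 2.86-fold and 2.85-fold. With difamilast edgeR called none of the 12, at an unadjusted p under 0.05 there were 0 higher and 2 lower, and DESeq2 and limma-voom also called 0. Irf9 was at 76.5, 60.1 and 52.7 CPM at rest, 181, 172 and 187 CPM with the cytokines and 194, 177 and 167 CPM with difamilast, with the last 2 groups overlapping. Of 9 inhibitors, Socs3, Socs1 and Ptpn2 rose, by 11.2-fold, 9.61-fold and 1.78-fold, and 3 fell. Of 17 genes on the routes to interferon production 8 rose, led by the kinase Ikbke at 6.42-fold, and 4 fell, namely Mavs, Tlr7, Tlr9 and Unc93b1. With difamilast 1 of the 9 inhibitors, Ptpn6, fell further (log2 -0.56 ± 0.11 SE) and 1 of the 17, the lipopolysaccharide receptor Tlr4, rose (log2 1.29 ± 0.17 SE). The Tlr4 call held in the 18 alternatives, and that of Ptpn6 was lost without difamilast replicate 2 or without any one of the stimulated libraries.

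A list of interferon stimulated genes outside the 45 was read next. It overlaps the list of signalling genes above, with Irf7 and Irf9 for example in both, so the counts of the lists are not separate. Of 65 such genes tested, 51 rose on stimulation, where 15.3% of all tested genes did. None was called lower by edgeR, DESeq2 or limma-voom, and 1 was lower at an unadjusted p under 0.05, with a median log2 fold change of 1.02. The ISG15-conjugating enzyme Ube2l6 rose by 11.7-fold, the GTPases Tgtp1 and Tgtp2 by 6.99-fold and 6.91-fold, and the chemokine Cxcl10 by 6.74-fold. With difamilast 2 of the 65 were called lower, where 1.24% of all tested genes were, namely Ube2l6 (log2 -0.79 ± 0.16 SE) and Ifi207 (log2 -0.69 ± 0.16 SE), which is a HIN-200 gene like Ifi205. Both calls were lost without any one of stimulated replicates 1 and 2 and difamilast replicates 1 and 2, and that of Ifi207 also without stimulated replicate 3. DESeq2 and limma-voom each called 8 of the 65 lower, where they called 1.95% and 1.87% of tested genes, and without resting replicate 1 edgeR called 12, where it called 3.69%. The median log2 difference of the 65 was -0.18 beside -0.21 for the 45. Of 18 genes of class I antigen presentation 14 rose on stimulation, where 15.3% of all tested genes did. With difamilast edgeR called 3 lower, where it called 1.24% of all tested genes lower. These were the immunoproteasome subunits Psmb8 and Psmb10 and the proteasome activator Psme2, at log2 differences of -0.59 ± 0.12, -0.84 ± 0.14 and -0.85 ± 0.20. DESeq2 called 5 class I genes lower and limma-voom 4, where they called 1.95% and 1.87% of tested genes lower. The Psmb10 call held in the 18 alternatives, while those of Psmb8 and Psme2 were lost without any one of stimulated replicates 1 and 3 and difamilast replicates 1 and 2, and that of Psme2 also without stimulated replicate 2 or resting replicate 1. The presenting molecules H2-K1 and H2-D1 had log2 differences with difamilast of 0.11 ± 0.12 and 0.09 ± 0.12, and neither passed the test.

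**Figure D5:**
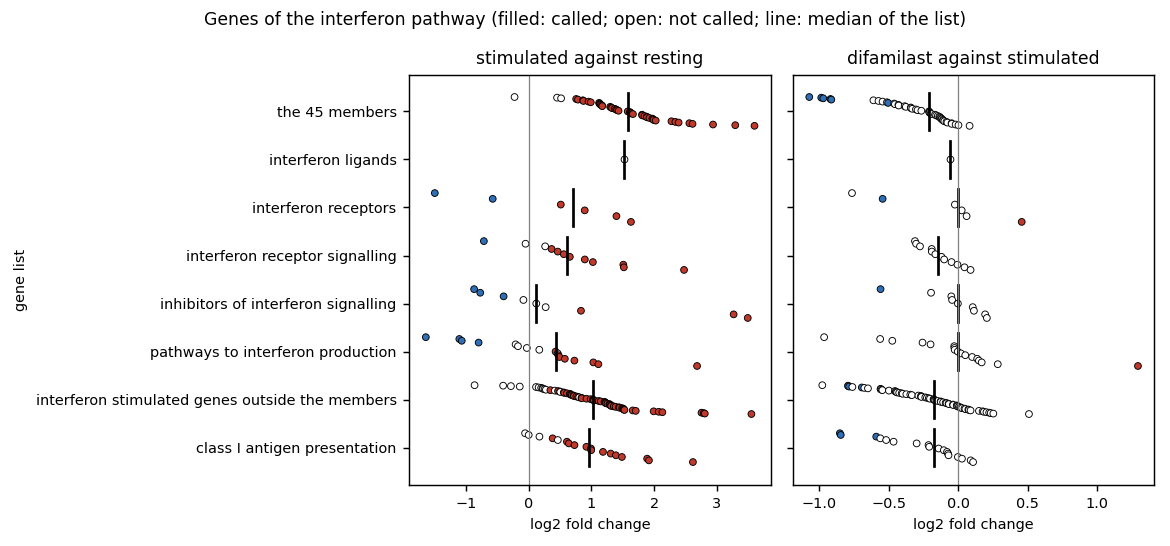
Log2 fold change of every tested gene in the 45-gene family and in 7 lists of related genes, for stimulated against resting libraries (left) and difamilast against stimulated libraries (right, on its own scale). Filled points passed an adjusted p under 0.05 (red higher, blue lower), open points did not, and the upright line is the median of each list, 1.58 on the left and -0.21 on the right for the 45 genes.

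Genes with and without an ISRE match in their window were set side by side as a description. The 20 genes with a match had a median log2 fold change of 1.61 on stimulation, and the 14 genes with a window and no match had 1.32. With difamilast the medians were -0.24 and -0.13. Of the 6 genes that fell, 5 had a window, and those of Ifit3, Ifit3b, Gbp2 and Ifi205 held a match. Neither of the 2 windows of Ifit2 did, which says only that these letters are not in those stretches. Isg20, whose log2 difference with difamilast was further from 0 than that of Gbp2 but did not pass the test, had 3 windows with no match. The windows of Mx1, Mx2, Usp18, Zbp1, Rtp4, Oas2, Parp9, Parp14, Dhx58, Ifi204 and Ifi27l2a were not used here.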

How the data were processed

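RNA of 9 libraries was read from 1 table of gene counts. Counts were deposited by the authors per gene symbol, and the submitters' processing notes list cutadapt 4.1, Bowtie2 2.4.5 and the build GRCm38. No source used here names the counting tool, its strand setting or the gene annotation. Samples were grouped by the treatment in their labels. Genes were kept by filterByExpr (minimum count 10, minimum total 15), which left 21341 of 35673. All 9 libraries were fitted together with edgeR 4.0.16 (R 4.3.3; trimmed mean of M values, robust quasi-likelihood fit, 6 residual degrees of freedom), and p-values were adjusted by the Benjamini-Hochberg method over all tested genes and called under 0.05. The script was tested on simulated data. Depth set a floor of 3 counts at 0.0891 to 0.380 CPM, for counting error only. Alternatives were DESeq2 1.42.0, limma-voom (limma 3.58.1), other scaling, filter and grouping choices, a replicate block, removal of a trend with transcript length, thinning to the shallowest library and leaving out each library. Transcript lengths (the longest transcript of a gene) and coordinates came from the basic GENCODE annotation of GRCm38, shared 50-base words from its full transcript set, and promoter windows from RefSeq. Per-library values were given by rule for members averaging at least 20 CPM and for members called with difamilast, and other pathway genes were named as the called ones with the smallest p, with every interferon gene that had a count. One gene that this rule names is not reported here. The members and lists were chosen with earlier results of these data known.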

Additional observations from a re-analysis of the deposited data

How the results depend on the processing

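Over 18 alternatives the 45 genes gave 810 values in each comparison. On stimulation 796 kept direction and call, 5 lost and 9 gained a call and 0 changed sign. For difamilast against stimulated the numbers were 721, 16, 55 and 18, and for difamilast against resting 772, 27, 4 and 7. Called higher on stimulation were 41 to 44 genes, where 9.21% to 17.1% of all tested genes were. Called lower with difamilast against stimulated were 11 genes with no filter on low counts (1.86% of all tested genes), 11 with only the 2 groups compared (4.01%), 10 with the length trend removed (1.91%), 1 to 15 when single libraries were left out (0.421% to 3.69%) and 28 with resting replicate 1 and difamilast replicate 3 both left out (9.57%), the last chosen after seeing the data. Over all genes 1.24% were called lower in the test the report gives. The median log2 difference was -0.34 without difamilast replicate 3, in a range of -0.34 to -0.17 over single libraries left out, and -0.33 without both. Called lower on stimulation were 0 to 1 genes over single libraries left out, and in difamilast against resting 0 with only the 2 groups compared and 0 to 1 over single libraries left out. The cause of these shifts was not tested.

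The genes that changed sign were not called in the tests the report gives. Against stimulated, Herc6 was at 0.0052 with no filter, 0.0336 with thinned libraries, and from -0.0672 to 0.0389 over single libraries left out (0.0180 without stimulated replicate 1). Dhx58 was at -0.0090 with the replicate block, -0.0151 with limma-voom, -0.0135 with the length trend removed, and from -0.13 to 0.12 over single libraries left out (-0.0131 for stimulated replicate 2, -0.0037 for stimulated replicate 3). With resting replicate 1 and difamilast replicate 3 both out it was at -0.13. Ifih1 was at 0.0317 and Adar at 0.0330 with thinned libraries. Over single libraries left out, Adar ranged from -0.12 to 0.0207, Oas1a from -0.0930 to 0.0174, Oas2 from -0.19 to 0.0981 and Isg15 from -0.60 to 0.0368 (0.0160 for difamilast replicate 2). Against resting the same ranges were -0.0972 to 0.525 for Ifit3b (-0.0375 for resting replicate 3), -0.0554 to 0.41 for Ifi44 (-0.0267 for resting replicate 2) and -0.24 to 0.29 for Ifi27l2a (-0.0232 for resting replicate 3), and Ifi27l2a was at -0.22 with those same 2 libraries out.

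The groups share replicate numbers in the labels, but deviations of same-numbered libraries correlated at -0.078 to 0.108, with 1 of 9 pairs over 0.1, so the numbers were not taken to pair them. With the replicate number as a block, 42 genes were called higher on stimulation, where 14.8% of all tested genes were. In that setting 7 were called lower with difamilast against stimulated (1.28% of tested genes). Against resting 38 were called higher (15.4% of tested genes). Shallow resting libraries limit the values of low members: the floor was 0.165 to 0.380 CPM there.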

Other observations

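Transcript length moved with the difference between difamilast and stimulated libraries across the whole table. Among genes of at least 10 CPM, the median log2 difference was -0.35 for 836 genes with a longest transcript (basic GENCODE set) under 1000 bases, -0.08 for 1652 genes of 1000 to 2000 bases, 0.02 for 3268 genes of 2000 to 4000 bases and 0.04 for 2965 genes over 4000 bases. The interferon stimulated genes in the same length classes had medians of -0.34 (3 genes, Isg15, Bst2 and Ifi27l2a), -0.42 (10 genes), -0.20 (21 genes) and -0.13 (9 genes). With the length trend removed, 10 of the 45 genes were called lower with difamilast, where 1.91% of all tested genes were. The 6 named in the report kept their calls.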
